A study of Mus musculus with 5 samples.

Results

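The 10 genes described here make leukotrienes, hydroxylated fatty acids and prostaglandins from arachidonic acid. They were taken by name (Alox5, Alox5ap, Alox12, Alox15, Lta4h, Ltc4s, Ptgs1, Ptgs2, Ptges and Hpgds) from a table of read counts with 54113 named entries. The set was chosen by the CPM of these genes in the libraries at 30 °C and 4 °C. Their own difference between the temperatures is therefore given as a description without a p-value. Tumours of the mouse colon carcinoma line MC38 (CRC tumours) were grown in C57BL/6 mice, with 3 tumours from mice kept at 30 °C and 2 from mice kept at 4 °C, each exposure lasting 2 weeks. No genetic change, Cre or agent is named in the labels, and all mice carried the same tumour line. The labels give neither the age nor the sex of these mice and name no batch.

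Arachidonic acid is cut from membrane lipids by phospholipases and then enters competing routes. The 5-lipoxygenase Alox5, helped by the membrane protein Alox5ap, starts the leukotrienes, which draw in and activate white blood cells, while the cyclooxygenases Ptgs1 and Ptgs2 start the prostaglandins, which act on vessels, pain, fever and immune cells. Neutrophils, macrophages, mast cells, eosinophils and platelets are known as main sources of these lipids, and tumours often use prostaglandin E2 to restrain immune cells.

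Counts assigned to named genes ranged from 16191708 to 20320525 per library, and levels are given as CPM (counts per 1000000 counts) after scaling between libraries by the TMM method. Pancreatic acinar genes, 19 in the list used, took 26.2% of the counts in 30 °C replicate 2, 0.256% in 4 °C replicate 2 and between 0.00207% and 0.00789% in the other 3, so results that rest on 30 °C replicate 2 are also given without it. Transcripts typical of colon carcinoma and other epithelium, 9 genes summed, lay between 17.9 and 170 CPM. The 6 B cell genes reached between 1055 and 3209 CPM and the 3 transcription factors of splenic mesenchyme between 32.5 and 61.1 CPM. The 6 erythroblast genes summed to between 10371 and 32987 CPM and the 6 T cell genes to between 194 and 440 CPM. The label of colon carcinoma tumour was thus not apparent from these markers, and the libraries are called tumours here by their labels alone. Which tissue the RNA came from was not tested.

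All 10 genes were detected, and each passed the filter on low counts. Per length of exon, Alox5ap stood highest. Its level ran from 40.4 to 170 CPM per kilobase with a median of 69.0, above every value of Lta4h, the next gene (18.8 to 27.7). Ptgs1 followed with a median of 12.3 CPM per kilobase and Alox12 with 9.35, and the ranges of Lta4h, Ptgs1 and Alox12 overlapped in turn, while Alox12 lay above all values of Alox15. Below them lay Alox15 (median 5.05), Ltc4s (4.17), Alox5 (3.47), Hpgds (2.78) and Ptges (2.19), neighbours that did not differ beyond their spread across libraries. Ptgs2 stood last at 0.0537 to 0.371 CPM per kilobase, below the lowest value of Ptges in every library. Among 16001 tested genes with a known exon length, the median of Alox5ap was at percentile 95.4, that of Alox5 at 44.4 and that of Ptgs2 at 7.57.

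**Figure D1:**
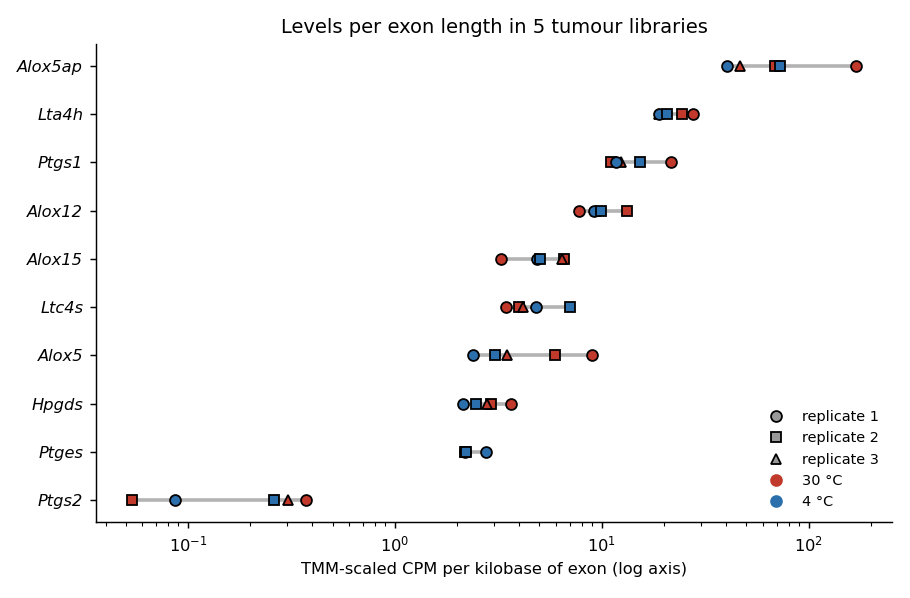
Levels of the 10 genes as TMM-scaled CPM per kilobase of exon on a log axis, 1 symbol per tumour library, with grey lines from the lowest to the highest library. Alox5ap lies right of all other genes and Ptgs2 left of all others, while Alox15, Ltc4s, Alox5, Hpgds and Ptges overlap with their neighbours.

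Levels of the leukotriene starter Alox5, on chromosome 6 of GRCm38 from 116410077 to 116461178 on the minus strand, were 36.8, 24.4 and 14.3 CPM in the tumours at 30 °C and 9.83 and 12.6 CPM in those at 4 °C. Both tumours at 4 °C lay below all tumours at 30 °C, with 30 °C replicate 3 close to them and 30 °C replicate 1 far above. The exact 95% Poisson intervals of 30 °C replicate 3 (12.8 to 15.9 CPM) and 4 °C replicate 2 (10.9 to 14.4 CPM) overlapped. The means were 25.2 ± 11.3 CPM (SD, n = 3) and 11.2 ± 1.93 CPM (SD, n = 2), which gave a log2 fold change of −1.17 (standard error, SE, 0.41). When single libraries were left out, the log2 fold change of Alox5 stayed between −1.45 and −0.79, and the value nearest 0 came without 30 °C replicate 1.

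Alox5ap, which presents arachidonic acid to Alox5 and lies on chromosome 5 from 149264767 to 149288153, had 241, 97.9 and 66.0 CPM at 30 °C and 57.4 and 103 CPM at 4 °C. Here the groups overlapped, and a single library, 30 °C replicate 1, held more than double the level of any other. Its log2 fold change was −0.75 (SE 0.59) and shrank to −0.03 without 30 °C replicate 1. Relative to Alox5, and per length, Alox5ap was between 11.6 and 23.6 times as abundant in the 5 libraries.

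Downstream of Alox5, Lta4h converts leukotriene A4 into leukotriene B4, an attractant of neutrophils. It lies on chromosome 10 from 93453411 to 93484875 and was the steadiest of the leukotriene enzymes, with 169, 150 and 115 CPM at 30 °C and 115 and 126 CPM at 4 °C. The groups overlapped, and the highest library exceeded the lowest 1.47-fold.

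Ltc4s makes leukotriene C4, the parent of the cysteinyl leukotrienes that contract smooth muscle and open vessels. In contrast to Alox5, its level was 3.51, 4.02 and 4.23 CPM at 30 °C and 4.87 and 7.12 CPM at 4 °C, with both tumours at 4 °C above all at 30 °C. The means were 3.92 ± 0.371 CPM (SD, n = 3) and 5.99 ± 1.59 CPM (SD, n = 2), or 0.61 on the log2 scale (SE 0.31). These are low counts, from 49 to 119 reads per library, and the exact 95% Poisson interval for 30 °C replicate 3 (3.43 to 5.16 CPM) overlaps that for 4 °C replicate 1 (3.95 to 5.93 CPM). These intervals allow for counting error alone and not for differences between animals. Reads copied by PCR are not independent molecules, so the intervals may understate even the counting error. Without 4 °C replicate 2 the log2 fold change of Ltc4s was 0.30, and without 4 °C replicate 1 it was 0.86. Ltc4s lies on chromosome 11 from 50236461 to 50238616, and 26.4% of its exon bases are shared with the antisense gene Gm26542, which had between 6 and 15 counts per library. Reads of this pair cannot be told apart if the counting ignored strand, which the sources used here do not state. The ratio of Lta4h to Ltc4s per length went from 8.01, 6.18 and 4.52 at 30 °C to 3.94 and 2.95 at 4 °C, a description chosen after the values were seen.

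Of the other lipoxygenases, Alox12 is the enzyme of platelets and Alox15 that of eosinophils and resident macrophages. Both lie on chromosome 11 on the minus strand, Alox12 from 70241457 to 70255353 and Alox15 from 70344152 to 70352031, with 88798 bases between them. Levels of Alox12 were 31.6, 53.9 and 38.2 CPM at 30 °C and 37.4 and 40.4 CPM at 4 °C. Those of Alox15 were 7.97, 16.1 and 15.7 CPM at 30 °C and 12.0 and 12.4 CPM at 4 °C. In both genes the tumours at 4 °C lay inside the range of those at 30 °C, which was set by 30 °C replicate 1 at its lower end and 30 °C replicate 2 at its upper end. The log2 fold changes were −0.08 (SE 0.26) for Alox12 and −0.12 (SE 0.34) for Alox15. Both signs turned without 30 °C replicate 2 (0.15 and 0.03) and with plain CPM (0.08 and 0.01), and that of Alox15 also without 30 °C replicate 3 (0.02). Per length, Alox12 exceeded Alox15 between 1.46-fold and 2.38-fold in the 5 libraries. The longest run shared by transcripts of Alox12 and Alox15 is 18 bases, and between Alox5 and either of them at most 17 bases.

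**Figure D2:**
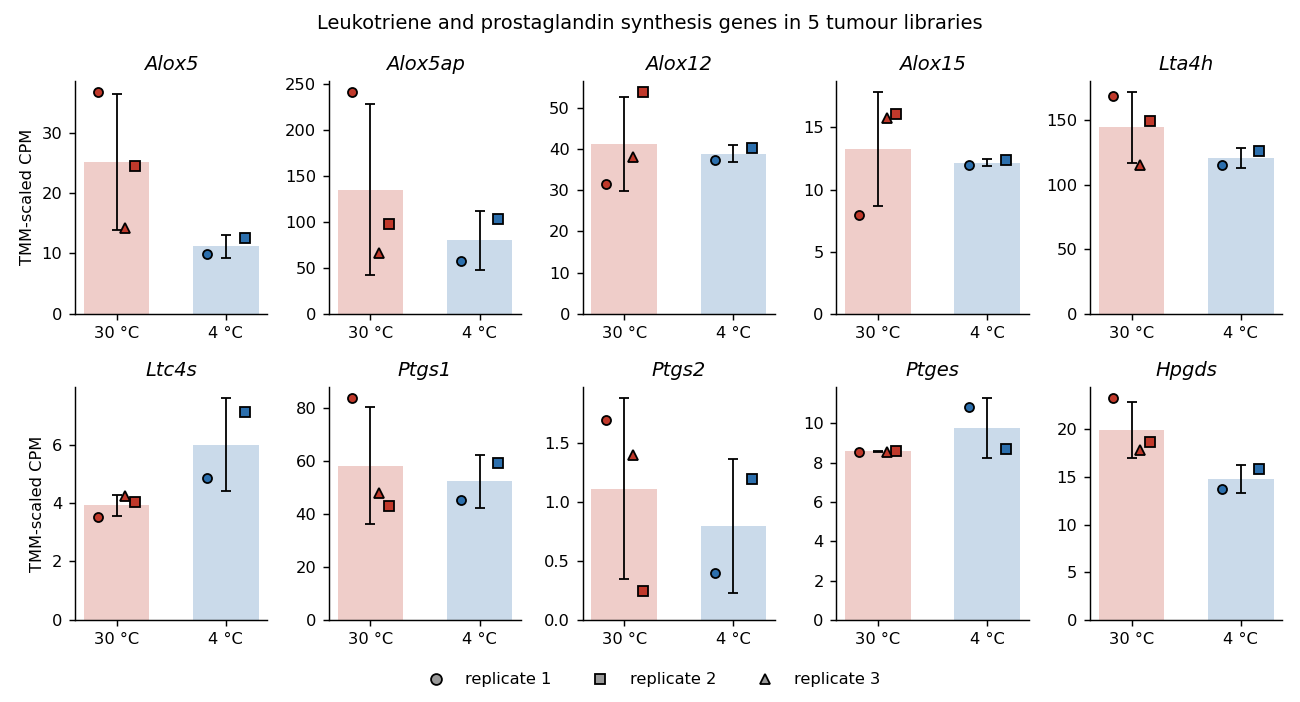
TMM-scaled CPM of the 10 genes in each tumour library (symbols by replicate), with bars for the group means and error bars for the SD (n = 3 at 30 °C, n = 2 at 4 °C). Alox5 and Hpgds lie lower and Ltc4s higher in both tumours at 4 °C than in all at 30 °C, the lower tumour at 4 °C barely exceeds 30 °C for Ptges, and the other 6 genes overlap.

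Among the prostaglandin genes, the cyclooxygenase that is made constantly, Ptgs1, was abundant, and its induced relative Ptgs2 was near the limit of detection. Ptgs1, on chromosome 2 from 36230426 to 36252272, had 83.9, 43.2 and 47.9 CPM at 30 °C and 45.4 and 59.4 CPM at 4 °C. The groups overlapped, with 30 °C replicate 1 well above the rest. The log2 fold change of Ptgs1 was −0.16 (SE 0.33), and its sign turned without 30 °C replicate 1 (0.20) and without 4 °C replicate 1 (0.03).

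Ptgs2, on chromosome 1 from 150100031 to 150108227, had 32, 3 and 32 reads at 30 °C and 8 and 20 reads at 4 °C, which equals 1.70, 0.246 and 1.40 CPM against 0.397 and 1.20 CPM. A count of 3 or fewer was taken as the floor, so Ptgs2 was at the floor in 30 °C replicate 2. By exact 95% Poisson intervals, 30 °C replicates 1 (1.16 to 2.40 CPM) and 3 (0.954 to 1.97 CPM) lay above 30 °C replicate 2 (0.0507 to 0.719 CPM) and 4 °C replicate 1 (0.172 to 0.783 CPM), so libraries of 1 group differed beyond counting error. The groups overlapped, with a log2 fold change of −0.53 (SE 0.84) that turned to 0.08 without 4 °C replicate 1 and was −1.51 without 4 °C replicate 2. Without 30 °C replicate 2, the library at the floor, the log2 fold change was −0.98. Both tumours at 4 °C then lay below the remaining tumours at 30 °C, in a setting where 29% of all tested genes were without overlap in either direction. Per length, Ptgs1 exceeded Ptgs2 between 40.5-fold and 207-fold, the latter against the count of 3.

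Ptges, on chromosome 2 from 30889471 to 30929863, makes prostaglandin E2. Levels at 30 °C were 8.56, 8.61 and 8.55 CPM, the closest agreement of any gene here, and those at 4 °C were 10.8 and 8.68 CPM. Although the groups did not overlap, 4 °C replicate 2 was above 30 °C replicate 2 by less than counting error, and the groups overlapped with RLE scaling, DESeq2 size factors, plain CPM, no filter and without 30 °C replicate 2. The log2 fold change was 0.19 (SE 0.23), or 0.02 without 4 °C replicate 1.

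Hpgds makes prostaglandin D2, a product of mast cells that acts on eosinophils and T cells. It lies on chromosome 6 from 65117293 to 65144908 and had 23.3, 18.7 and 17.8 CPM at 30 °C and 13.8 and 15.9 CPM at 4 °C. Both tumours at 4 °C were below all at 30 °C, in the order seen for Alox5. The exact 95% Poisson intervals of the nearest libraries overlapped, 16.1 to 19.6 CPM for 30 °C replicate 3 and 14.0 to 17.9 CPM for 4 °C replicate 2. The means were 19.9 ± 2.93 CPM (SD, n = 3) and 14.8 ± 1.48 CPM (SD, n = 2), or −0.43 on the log2 scale (SE 0.21) that stayed between −0.55 and −0.30 with each library left out. With plain CPM, in which 30 °C replicate 2 is diluted by its acinar transcripts (13.8 CPM), the groups of Hpgds overlapped.

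In the groups as a whole, 2 of the 10 genes were without overlap and lower at 4 °C (Alox5 and Hpgds), against 11.0% of the 16133 tested genes, and 2 were without overlap and higher (Ltc4s and Ptges), against 12.2%. Either direction made up 23.3% of all tested genes. Since the genes were chosen with this contrast known, nothing is read from these shares. With plain CPM only Alox5 and Ltc4s were without overlap, against 16.4% of all tested genes, and that scaling moved the median log2 fold change of all tested genes from 0.01 to 0.11. The median log2 fold change of the 10 genes was −0.21. By the quasi-likelihood test of edgeR with Benjamini-Hochberg adjustment over all tested genes, 0 genes were past an adjusted p of 0.05 (0.00% called), while 1090 genes had an unadjusted p under 0.05 (6.76%). The Wald test of DESeq2 called 112 genes (0.741%).

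The promoters of 8 of the 10 genes were found in the RefSeq table for GRCm38.p6, and those of Alox5ap and Alox15 are not shown. The 4 genes without overlap between the temperatures are shown with bases before their RefSeq start, 5′ to 3′ on the strand of the gene, with the motifs below in capitals. For Alox5 and Ptges these are all 250 bases of the window searched. For Ltc4s and Hpgds the RefSeq start lies inside the gene span given above, so only the 166 and 72 bases before the first GENCODE exon are shown. The Ptges window precedes an inner start and lies within an intron of a longer GENCODE transcript.
Alox5 (chr6:116461179-116461428, minus strand): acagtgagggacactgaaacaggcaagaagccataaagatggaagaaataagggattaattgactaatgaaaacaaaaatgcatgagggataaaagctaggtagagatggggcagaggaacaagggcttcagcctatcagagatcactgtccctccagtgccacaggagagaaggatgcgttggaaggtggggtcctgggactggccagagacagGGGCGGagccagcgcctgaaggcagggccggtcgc
Hpgds (chr6:65144909-65144980, minus strand): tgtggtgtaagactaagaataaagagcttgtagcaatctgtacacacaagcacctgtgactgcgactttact
Ltc4s (chr11:50238617-50238782, minus strand): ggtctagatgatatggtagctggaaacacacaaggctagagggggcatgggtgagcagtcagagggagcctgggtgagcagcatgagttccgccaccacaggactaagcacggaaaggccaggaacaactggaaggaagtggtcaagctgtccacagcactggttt
Ptges (chr2:30903298-30903547, minus strand): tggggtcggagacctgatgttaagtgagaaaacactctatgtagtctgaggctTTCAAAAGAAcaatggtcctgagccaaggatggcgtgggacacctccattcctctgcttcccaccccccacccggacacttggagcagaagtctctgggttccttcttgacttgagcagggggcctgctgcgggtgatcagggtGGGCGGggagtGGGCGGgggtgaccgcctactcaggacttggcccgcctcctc

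The pair of cyclooxygenases, of which Ptgs1 exceeded Ptgs2 in every library, is shown in the same way with all 250 bases.
Ptgs1 (chr2:36230176-36230425, plus strand): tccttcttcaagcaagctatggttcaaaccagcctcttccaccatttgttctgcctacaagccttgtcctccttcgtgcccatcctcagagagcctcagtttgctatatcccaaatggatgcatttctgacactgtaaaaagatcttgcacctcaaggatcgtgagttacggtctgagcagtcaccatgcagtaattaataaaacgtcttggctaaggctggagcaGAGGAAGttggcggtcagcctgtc
Ptgs2 (chr1:150099781-150100030, plus strand): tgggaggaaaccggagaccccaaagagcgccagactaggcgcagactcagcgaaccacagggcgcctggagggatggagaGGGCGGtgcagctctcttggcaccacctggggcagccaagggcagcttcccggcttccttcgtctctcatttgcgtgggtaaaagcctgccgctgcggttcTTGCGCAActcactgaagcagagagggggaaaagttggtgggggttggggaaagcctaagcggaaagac

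Searched on both strands, the GC box GGGCGG stood in 4 of the 8 promoters (Alox5, Alox12, Ptgs2 and Ptges) and in 32.9% of 27025 promoters of this length. The motif GAGGAAG of PU.1 and other ETS factors stood in Ptgs1 and Hpgds and in 10.4% of all promoters, and the C/EBP motif TTGCNNAA in Ptgs2 and Hpgds and in 9.55%. The STAT6 motif was found in Ptges (5.87% of all) and a CCAAT box, CCAAT, in Lta4h (34.5%). The TATA box TATAAA (13.0% of all), AGATAA of GATA factors (10.3%), the NF-kB motif (1.40%) and TGACGT of the cAMP response element (6.56%) were in none of the 8 windows. Both matches of Hpgds lie in the 178 bases that GENCODE places in an exon and are not shown. No motif was shared by Alox5 and Hpgds, and Ltc4s held none of the letters searched. Motifs of these kinds overlapped nowhere in the sequences shown.

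Several of the 10 genes are known from particular blood cells, so their levels were set beside lists of marker genes. The list of mature neutrophils, 12 genes led by S100a9, summed to 12938, 8539 and 3123 CPM at 30 °C and to 2573 and 4144 CPM at 4 °C. All 12 genes had a higher mean at 30 °C, and 4 of them were without overlap and lower at 4 °C, against 11.0% of all tested genes. The list of early granule genes, 5 genes led by Mpo, gave 1718, 993 and 249 CPM against 189 and 356 CPM. In both lists 30 °C replicate 1 was highest and 4 °C replicate 1 lowest, as in Alox5 and Alox5ap. Every gene of both lists was above the floor in all 5 libraries. In bulk tissue, fewer cells of a type and less RNA per cell cannot be told apart.

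Relative to the list of mature neutrophils, the level of Alox5 was 2.84, 2.86 and 4.56 CPM per 1000 CPM of the list at 30 °C and 3.82 and 3.03 at 4 °C. The groups then overlapped, with means of 3.42 ± 0.989 (SD, n = 3) and 3.43 ± 0.559 (SD, n = 2). For Alox5ap the same ratio was 18.6, 11.5 and 21.1 at 30 °C and 22.3 and 24.8 at 4 °C. This ratio was higher in both tumours at 4 °C, although the level of Alox5ap itself overlapped between the groups (log2 fold change −0.75). Which cells the reads of Alox5ap came from was not tested.

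The list of mast cells and basophils, 11 genes led by Kit, ran in the same order of libraries as Hpgds, from 139, 101 and 87.4 CPM at 30 °C to 66.3 and 86.6 CPM at 4 °C. Per 1000 CPM of this list, Hpgds stood at 168, 185 and 204 at 30 °C and at 208 and 183 at 4 °C, with overlap of the groups. Of the 11 genes, 8 had a higher mean at 30 °C and 10 were above the floor in every library. Without overlap and lower at 4 °C were 4 of the 11, against 11.0% of all tested genes. Ltc4s, also a gene of mast cells, was in contrast higher in both tumours at 4 °C.

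Alox12 relative to the 10 genes of megakaryocytes and platelets, led by Ppbp, varied least, from 94.0 to 114 CPM per 1000 CPM in the 5 libraries. The list itself was at 326, 533 and 343 CPM at 30 °C and at 328 and 430 CPM at 4 °C. As in Alox15, 30 °C replicate 2 had the highest and 30 °C replicate 1 the lowest sum of the 9 eosinophil genes (648 and 329 CPM). The megakaryocyte list and Alox12 had the same highest and lowest library. With plain CPM, Alox15 was instead highest in 30 °C replicate 3 (17.8 CPM, against 11.9 CPM in 30 °C replicate 2). Of the 9 eosinophil genes, 3 had a higher mean at 30 °C. Without overlap, 1 was lower at 4 °C (11.0% of all tested genes) and 0 were higher (12.2%). The 6 genes of resident peritoneal macrophages, another source of Alox15, summed to 94.3, 108 and 119 CPM at 30 °C and to 146 and 162 CPM at 4 °C. Unlike Alox15, this sum was higher at 4 °C without overlap, but 2 of the 6 genes had a higher mean at 30 °C. Taken singly, 3 of the 6 were without overlap and higher at 4 °C (12.2% of all tested genes) and 1 was lower (11.0%). The list of 12 macrophage and monocyte genes reached 2941, 1996 and 2034 CPM at 30 °C and 1855 and 2770 CPM at 4 °C, and its highest library was also that of Ptgs1 and Alox5ap. Of its 12 genes, 6 had a higher mean at 30 °C. These pairs of gene and list were chosen after the values were seen, so the ratios are a description. What part the cells play in the levels of the 10 genes was not tested.

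**Figure D3:**
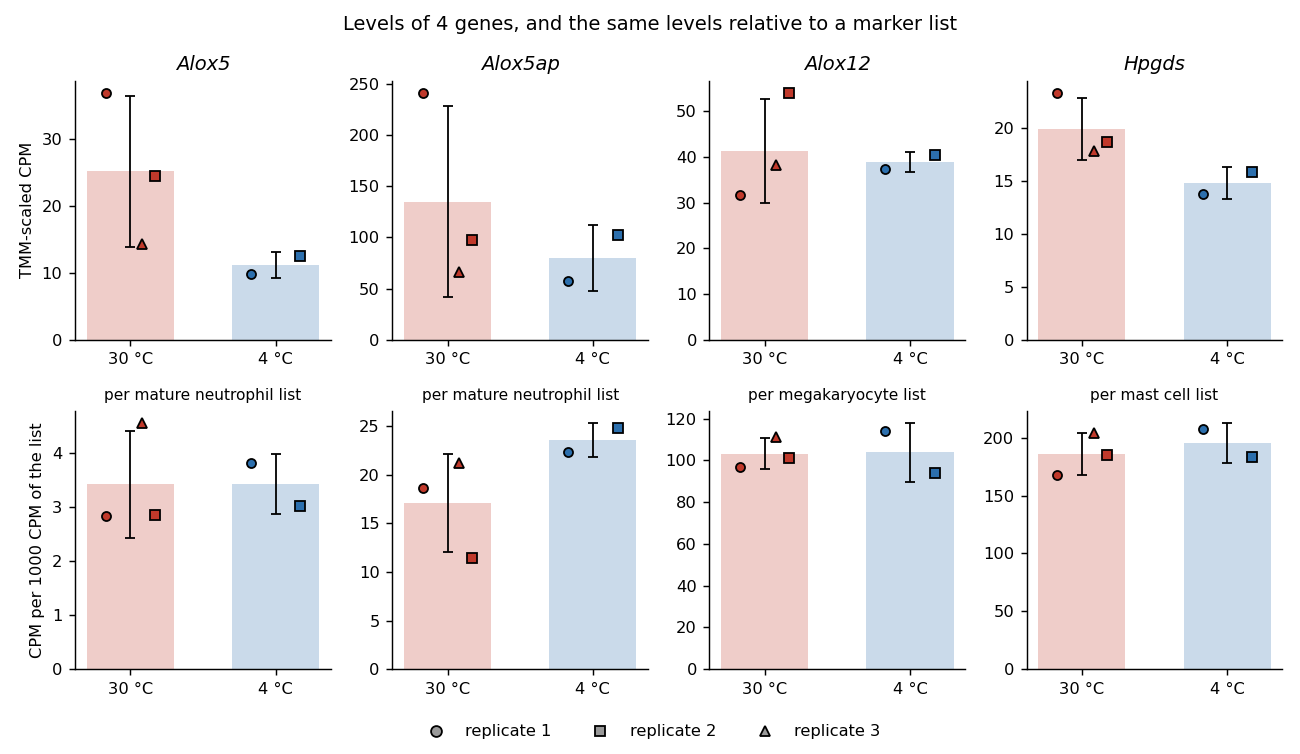
Top, TMM-scaled CPM of Alox5, Alox5ap, Alox12 and Hpgds by library. Bottom, the same levels per 1000 CPM of a summed marker list, with bars for means and error bars for the SD (n = 3 and n = 2). Alox5 and Hpgds are lower at 4 °C without overlap in the top row and overlap in the bottom row, and Alox12 stays between 94.0 and 114 per 1000 CPM.

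Beyond these 10, the rest of the pathway was read from 54 genes in 7 groups by role, of which 44 passed the filter. With edgeR none was past an adjusted p of 0.05. At an unadjusted p under 0.05, 4 of the 44 were higher at 4 °C (Pla2g2d, Pla2g5, Ptgis and Tbxa2r), where 2.58% of all tested genes were, and 1 was lower (Pla2g4c), where 4.17% were. Of the 44 genes, 21 had a positive and 23 a negative log2 fold change, with a median of −0.05, where 49.3% of all tested genes were negative. The genes Pla2g10, Alox12b, Dpep3, Oxgr1, Gpr17 and Ptgdr were at the floor in every library.

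In the release of arachidonic acid, 10 of 12 genes were tested, with 5 log2 fold changes in each direction. Pla2g4c, a cytosolic phospholipase, had 10.1, 7.87 and 6.15 CPM at 30 °C and 2.83 and 3.29 CPM at 4 °C. The change of −1.39 on the log2 scale (SE 0.33) was not past the threshold by edgeR (adjusted p = 0.69) but was called by DESeq2 (adjusted p = 0.043), the sole pathway gene so called. Across the other alternatives, all with edgeR, its adjusted p ran from 0.359 to 0.9998. Pla2g2d, a secreted phospholipase known from dendritic cells of lymphoid tissue, had 39.1, 70.3 and 109 CPM at 30 °C and 147 and 135 CPM at 4 °C (log2 fold change 0.96, SE 0.40, adjusted p = 0.74 from edgeR). Both Pla2g2d and the dendritic cell list, 7 genes at 151, 179 and 280 CPM against 290 and 237 CPM, were lowest in 30 °C replicate 1 and highest in 4 °C replicate 1. The same held for the B cell list. The groups overlapped in both lists and not in Pla2g2d. Pla2g5, also secreted, had 11.6, 7.63 and 16.9 CPM at 30 °C and 26.8 and 18.6 CPM at 4 °C (log2 fold change 0.91, SE 0.36, adjusted p = 0.72 from edgeR). Mgll, a lipase of monoacylglycerols, had a log2 fold change of −0.35 (SE 0.22).

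On the leukotriene side, 7 of 8 further enzymes and exporters were tested (1 positive and 6 negative log2 fold changes). Of the receptors, 4 of 6 were tested (1 positive and 3 negative). Over all tested genes, 49.3% of the log2 fold changes were negative. Those of Mgst2 (−0.03, SE 0.33), Abcc1 (−0.11, SE 0.18) and Dpep2 (−0.37, SE 0.68) were smaller than their SE. Of 6 other lipoxygenases and epoxide enzymes 3 were tested, with 2 positive changes. Ltb4r1, the receptor of neutrophils for leukotriene B4, had 41.7, 25.4 and 8.72 CPM at 30 °C and 7.50 and 16.1 CPM at 4 °C (log2 fold change −1.10, SE 0.68, adjusted p = 0.82 from edgeR). The groups overlapped, and the order of libraries was that of the neutrophil list. Cysltr1, a receptor of cysteinyl leukotrienes, had 3.03, 2.54 and 1.83 CPM at 30 °C and 0.695 and 1.79 CPM at 4 °C, without overlap (log2 fold change −0.99, SE 0.53, adjusted p = 0.78 from edgeR). Its counts were low, from 14 to 57 reads per library, and 30 °C replicate 3 and 4 °C replicate 2 were nearly level. Without 4 °C replicate 1 the log2 fold change of Cysltr1 was −0.45. Ggt1 and Dpep1, which trim leukotriene C4 to its later forms, had their highest values in 30 °C replicate 2, the library rich in acinar transcripts. Ggt1 reached 99.6 CPM there and at most 12.4 CPM elsewhere, and its log2 fold change went from −3.66 to −1.25 without that library. For Dpep1, at 9.60 CPM there and at most 2.44 CPM elsewhere, it went from −1.87 to −0.48.

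Among the prostanoid synthases all 8 genes were tested, with 5 positive and 3 negative log2 fold changes. Ptgis, the prostacyclin synthase of vessel walls and stroma, had 2.92, 5.09 and 7.06 CPM at 30 °C and 9.54 and 22.1 CPM at 4 °C. The log2 fold change of Ptgis was 1.65 (SE 0.48, adjusted p = 0.69 from edgeR) and fell to 0.91 without 4 °C replicate 2, the library with the highest sum of the 7 fibroblast and stroma genes (1230 CPM, against 536 in 4 °C replicate 1 and 474 to 1084 at 30 °C). Akr1b3, an aldose reductase that can make prostaglandin F2α, had a log2 fold change of 0.42 (SE 0.18, adjusted p = 0.74 from edgeR).

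Of the 9 prostanoid receptors 7 were tested, with 5 positive and 2 negative log2 fold changes. Tbxa2r, the thromboxane receptor of platelets and smooth muscle, had 11.5, 12.3 and 16.0 CPM at 30 °C and 22.2 and 21.2 CPM at 4 °C (log2 fold change 0.71, SE 0.22, adjusted p = 0.69 from edgeR). It stayed between 0.61 and 0.87 with each library left out. Ptger3, a receptor of prostaglandin E2, stood at 38.2 CPM in 30 °C replicate 2 and at 3.40 to 4.31 CPM elsewhere, so that its log2 fold change of −1.88 became 0.09 without that library.

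In transport and breakdown all 5 genes were tested, with 2 positive changes. Hpgd, which inactivates prostaglandins, had 51.6, 97.8 and 111 CPM at 30 °C and 122 and 150 CPM at 4 °C (log2 fold change 0.65, SE 0.33, adjusted p = 0.78 from edgeR). Both tumours at 4 °C lay above all at 30 °C, and without 30 °C replicate 1 the log2 fold change of Hpgd was 0.38. Ptgr1, a reductase that also degrades leukotriene B4, had a log2 fold change of −0.73 (SE 0.36, adjusted p = 0.77 from edgeR) with overlap of the groups. Abcc4, an exporter of prostaglandin E2, had 32.5, 31.0 and 33.0 CPM at 30 °C and 28.5 and 20.4 CPM at 4 °C (log2 fold change −0.40, SE 0.21, adjusted p = 0.78 from edgeR).

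**Figure D4:**
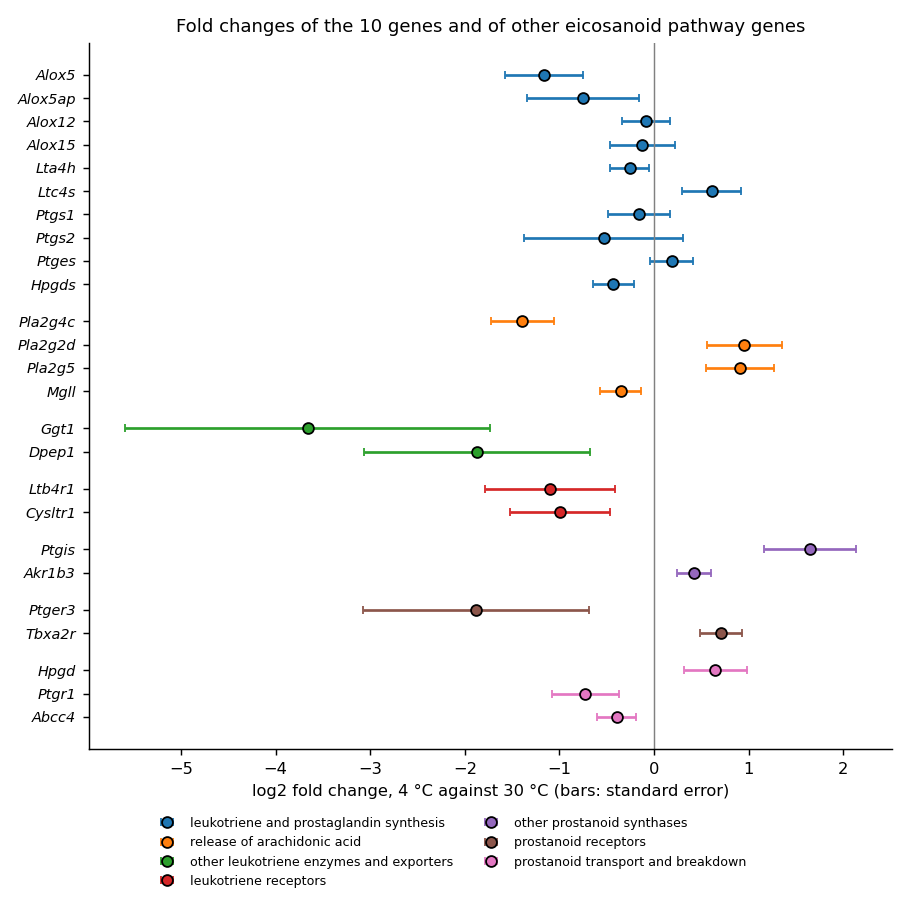
Log2 fold changes of 4 °C against 30 °C with standard errors for the 10 synthesis genes and for 15 other pathway genes named by smallest p, coloured by role. Values run from −3.66 (Ggt1) to 1.65 (Ptgis), and none of the 15 other genes was past an adjusted p of 0.05 by edgeR.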

How the data were processed

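RNA from tumours was sequenced by the authors. Per the labels, the build was GRCm38 and the processing notes name fastp, HISAT and RSEM, while the paper's methods name featureCounts on Gencode vM19. The deposited values are the authors' raw counts per gene symbol, and strand setting and the treatment of shared reads are not given in the sources used here. Of 54446 entries, 333 had no name (at most 0.0170% of a library's counts) and were left out, and 27 held a date for a symbol. Where several entries shared a symbol, the one with the highest mean stood for the gene in the lists. The others stayed in the table as separate entries. The 37 mitochondrial entries were at 0.

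Counts were analysed in R 4.3.3 with edgeR 4.0.16 (filterByExpr, TMM, robust quasi-likelihood F-test, two-sided, no covariate) and tested on simulated data. The self-made lists and the genes were chosen with earlier results of these data known. Pathway genes were named at an unadjusted p under 0.05 and filled to 15 by smallest p. Alternatives were DESeq2 1.42.0, other scalings and filters, no robust estimation, the replicate number as a block and each library left out. Exon lengths and positions come from GENCODE M21, promoters from RefSeq. Nothing in the labels says how the 5 samples relate beyond the group, so p-values measure only the spread between these samples. No correlation is given, since 5 libraries are too few.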

Additional observations from a re-analysis of the deposited data

How the results depend on the processing

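Over the whole table the count of called genes, 0 by edgeR, was 112 with the DESeq2 Wald test, 8 with plain CPM, 44 with the replicate block and 1090 at an unadjusted p. For pathway genes it was 1 with DESeq2 (Pla2g4c) and 5 at an unadjusted p. The number of genes without overlap, 4, was 2 with plain CPM (16.4% of all tested genes), 3 with RLE, DESeq2 size factors and no filter (22.7% to 22.9%) and between 4 and 5 with each library left out (29.0% to 59.4%), against 23.3%. The median log2 fold change of the 10 genes ran from −0.36 to −0.06 with a library left out. The log2 fold change of Ptger3, −1.88, ran from −2.36 to 0.094 with a library left out and turned without 30 °C replicate 2. Alox12, Alox15, Ptgs1 and Ptgs2 changed sign in 9 of their fits (Alox15 to 0.10 with the replicate block), so no direction is given for them. Leaving out a tumour at 4 °C assumes that the lone one varies like those at 30 °C. Deviations of the 2 libraries at 4 °C mirror each other, so they cannot show whether the numbers pair the samples, and the labels do not say it. The numbers were not taken as pairs. For all of these, the cause was not tested. Read counts were lowest for Ptgs2 (3 to 32) and Ltc4s (49 to 119).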
